A study of Mus musculus with 12 samples.

Results

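Histone genes were followed through a map of accessible chromatin in mouse blood cells. The peaks were chosen by the gene name that the deposited annotation gave each peak, taking every name that belongs to a replication-dependent histone gene (Hist1h to Hist4h) or to a histone variant gene (H2af, H3f3 and H1f followed by a digit). This gave 163 of 84243 peaks and 65 of 19040 gene names. Of these peaks, 100 carried the names of 55 replication-dependent genes and 63 carried the names of 10 variant genes. The same rule, applied to the RefSeq annotation of the assembly, gave 80 protein-coding histone genes, 67 replication-dependent and 13 variant, whether or not a peak was named for them, and 7 records that are not protein-coding.

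The study used the assay for transposase-accessible chromatin (ATAC-seq), in which a transposase cuts open DNA, on 6 cell types of untreated wild-type C57BL/6 mice aged 8 to 12 weeks, with 2 samples each and 12 in all. Hematopoietic stem cells (HSC), megakaryocyte progenitors (MkP), erythroid progenitors (EP), granulocytes and macrophages (GM) and B cells were sorted by antibody from bone marrow, and T cells from thymus. The values analysed here are the positions of one list of peaks that pools all of these samples, so a peak was accessible in at least 1 cell type, and the cell types cannot be told apart. The list holds no signal level, so depth is unknown, nothing was tested, and the sorted cells could not be checked against marker signal.

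Histones are the proteins around which DNA is wound into nucleosomes. Replication-dependent genes mostly lie in clusters, mostly have no introns, and are transcribed mainly while DNA is copied. They typically give mRNAs that end in a stem-loop in place of a poly(A) tail. Variant genes mostly lie outside these clusters and supply histones outside of replication as well. Many contain introns and give mRNAs with a poly(A) tail, but the class used here also holds genes annotated with a single exon, such as H2afx and H1f0. Histone promoters are known for shared short elements: a TATA box, CCAAT boxes bound by NF-Y, an octamer bound by Oct-1 in H2B promoters, an H1 box in linker histone promoters, and a site for Hinfp in H4 promoters.

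Sequences upstream of 1 gene per replication-dependent family and of 3 variant genes are shown because the classes and families differ in these elements. Within each family the gene was the one whose peak centre lay closest to its transcription start site (TSS) among genes in the promoter table. They come from RefSeq, build GRCm38.p6 (mm10), run 5′ to 3′ on the strand of the gene, end at the base before the start, and stop earlier where a neighbouring transcript begins. Capitals mark exact matches on either strand to the TATA box spelled TATAAA, the box bound by NF-Y, CCAAT, the octamer spelled ATTTGCAT, the H1 box spelled AAACACA, an E2F site spelled TTTNGCGC, the Hinfp core spelled GCGGAC and the GC box spelled GGGCGG.
Hist1h1c, chr13:23738557-23738806, plus strand: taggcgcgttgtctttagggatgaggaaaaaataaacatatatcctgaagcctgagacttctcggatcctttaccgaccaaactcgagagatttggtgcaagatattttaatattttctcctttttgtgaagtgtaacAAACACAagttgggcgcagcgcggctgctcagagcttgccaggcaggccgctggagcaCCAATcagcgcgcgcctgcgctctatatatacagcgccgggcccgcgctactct
Hist1h2ak, chr13:21753913-21754075, minus strand: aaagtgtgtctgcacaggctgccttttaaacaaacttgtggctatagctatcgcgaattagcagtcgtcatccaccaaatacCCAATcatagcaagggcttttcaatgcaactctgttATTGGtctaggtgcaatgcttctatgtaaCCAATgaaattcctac
Hist1h2bm, chr13:21721794-21722043, plus strand: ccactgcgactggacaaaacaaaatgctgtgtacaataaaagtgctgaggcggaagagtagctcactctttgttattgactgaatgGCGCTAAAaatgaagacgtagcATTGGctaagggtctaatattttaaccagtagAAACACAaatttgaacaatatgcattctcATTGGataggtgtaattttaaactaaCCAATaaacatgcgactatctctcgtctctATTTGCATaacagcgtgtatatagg
Hist1h3i, chr13:21783398-21783647, minus strand: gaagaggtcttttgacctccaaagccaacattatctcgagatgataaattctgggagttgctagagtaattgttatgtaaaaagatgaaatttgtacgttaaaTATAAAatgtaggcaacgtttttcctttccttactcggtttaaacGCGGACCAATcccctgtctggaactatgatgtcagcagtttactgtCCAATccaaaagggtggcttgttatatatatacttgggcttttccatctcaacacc
Hist1h4n, chr13:21832198-21832447, minus strand: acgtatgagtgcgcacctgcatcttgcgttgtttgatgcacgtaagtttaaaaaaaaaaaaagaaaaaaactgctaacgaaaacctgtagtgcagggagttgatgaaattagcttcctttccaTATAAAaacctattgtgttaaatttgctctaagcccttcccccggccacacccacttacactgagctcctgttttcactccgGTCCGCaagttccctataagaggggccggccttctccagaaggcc
H3f3a, chr1:180813606-180813855, minus strand: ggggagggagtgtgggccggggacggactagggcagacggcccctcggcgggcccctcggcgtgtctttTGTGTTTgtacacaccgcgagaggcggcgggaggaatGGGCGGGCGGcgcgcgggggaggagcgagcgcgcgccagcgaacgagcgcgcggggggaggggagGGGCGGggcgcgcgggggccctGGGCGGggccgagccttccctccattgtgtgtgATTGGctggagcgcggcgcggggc
H3f3b, chr11:116024505-116024754, minus strand: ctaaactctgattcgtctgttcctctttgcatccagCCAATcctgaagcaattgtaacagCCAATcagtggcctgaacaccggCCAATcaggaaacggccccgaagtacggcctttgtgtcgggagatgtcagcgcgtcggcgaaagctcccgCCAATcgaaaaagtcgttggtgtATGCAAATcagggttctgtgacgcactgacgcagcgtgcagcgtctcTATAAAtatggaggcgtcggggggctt
H2afz, chr3:137864327-137864486, plus strand: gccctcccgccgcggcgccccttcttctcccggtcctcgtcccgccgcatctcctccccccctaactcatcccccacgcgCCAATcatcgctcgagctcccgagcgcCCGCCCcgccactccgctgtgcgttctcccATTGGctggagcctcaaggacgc

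The linker histone promoter of Hist1h1c held an H1 box and 1 CCAAT box, at −112 and −54, counted back from the start to the first base of a match. The Hist1h2ak sequence of 163 bases is the whole gap to the divergent gene Hist1h2bn and held 3 CCAAT matches. That of Hist1h2bm held an octamer at −25, and that of Hist1h4n a Hinfp core on the opposite strand at −45 with no CCAAT box. In Hist1h3i the Hinfp core runs straight into a CCAAT box, and the 2 matches share a base. Both H3f3a and H3f3b encode the replacement histone H3.3, yet their sequences held different elements. That of H3f3a held 4 GC boxes, a CCAAT box at −24, an H1 box at −181 and no TATA box. That of H3f3b held a TATA box at −27, an octamer and 4 CCAAT boxes. The sequence of H2afz, which encodes H2A.Z, held 2 CCAAT boxes and a GC box.

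Most replication-dependent histone genes had an accessible promoter. A promoter peak, defined as a peak with its centre within 500 bp of an annotated TSS, was found at 56 of 67 replication-dependent genes (83.6%, 95% Wilson interval 72.9 to 90.6) and at 8 of 13 variant genes (61.5%, 35.5 to 82.3). Of all 20996 protein-coding genes, 60.4% had one, so the share of the replication-dependent genes lay above the background and that of the variants close to it. The intervals of both histone classes overlap. They treat genes as independent and cover counting error only, whereas clustered genes share sequence and peaks.

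The promoter share was similar in the 5 replication-dependent families. It was 11 of 12 for H3, 11 of 13 for H4, 15 of 18 for H2B and 14 of 18 for H2A, the 4 core histones, and 5 of 6 for H1, the linker histone that binds between nucleosomes. The lowest share (77.8%, 54.8 to 91) and the highest (91.7%, 64.6 to 98.5) had overlapping intervals. By location, the large Hist1 cluster on chromosome 13 had 46 of 54 genes with a promoter peak, Hist2 on chromosome 3 had 8 of 10, Hist3 on chromosome 11 had both of its genes, and the only Hist4 gene had none.

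**Figure D1:**
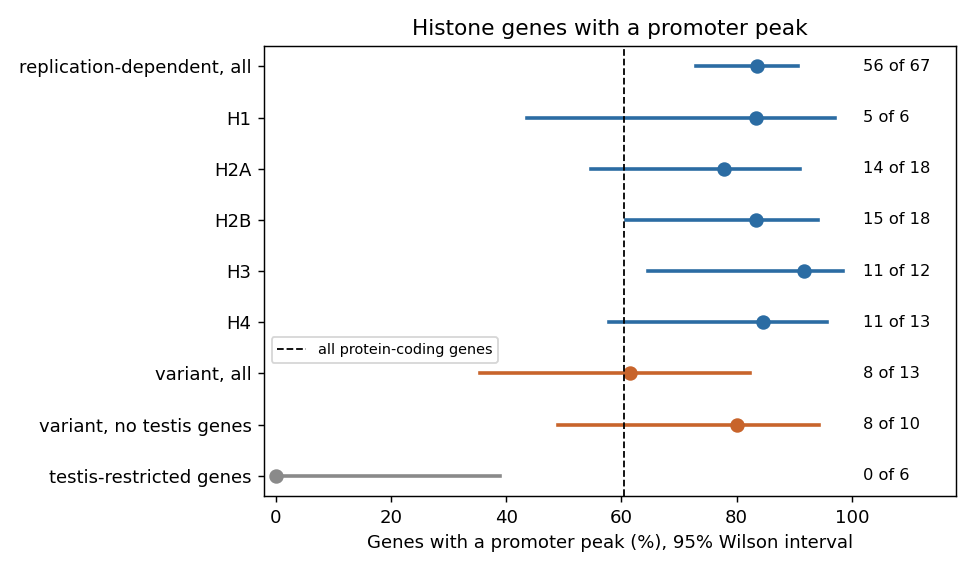
Share of protein-coding histone genes with a promoter peak (x axis, percent) by class and family, with points for the share, bars for the 95% Wilson interval and the count at the right. The dashed line is the share over all protein-coding genes, 60.4%. The points of all 5 replication-dependent families lie to its right, with bars that cross it for H1, H2A and H4, and the testis-restricted genes lie at 0.

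Genes known for expression in male germ cells had no promoter peak. The list held the linker gene Hist1h1t, the pair Hist1h2aa and Hist1h2ba, and the short H2A variants H2afb1, H2afb2 and H2afb3 on the X chromosome, and 0 of these 6 genes had one (interval 0 to 39). The nearest peak centre was 2596 bp from the start of Hist1h1t, which lies among genes that all had promoter peaks. It was 8182 bp from that of Hist1h2ba and 8463 bp upstream of that of Hist1h2aa. For H2afb1, H2afb2 and H2afb3 it was 755729, 1089308 and 1184757 bp away. Without these genes the promoter share was 56 of 64 (87.5%, 77.2 to 93.5) for the replication-dependent class and 8 of 10 (80%, 49 to 94.3) for the variants.

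The other 8 replication-dependent genes without a promoter peak were Hist1h4k, Hist1h2bq, Hist1h2ao, Hist1h2ap, Hist1h2br, Hist2h2aa2, Hist2h3c1 and Hist4h4. The nearest centre lay 560 bp downstream of the start of Hist4h4, just beyond the limit, at a peak that the list annotates to the end of this short gene. It lay at 947 bp for Hist2h3c1 and 1234 bp for Hist2h2aa2. For Hist1h2ap, Hist1h2ao, Hist1h2br, Hist1h2bq and Hist1h4k the nearest centre was 1315, 1432, 1583, 1600 and 3384 bp away, upstream for the last 3. The promoter peak farthest from its start was that of Hist1h3f, with its centre 342 bp downstream, so no gene lay between 342 and 560 bp.

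Part of these genes lie in near-identical copies, in which a short read can match more than 1 place. The study's processing was set to leave out multimapping reads. As a measure of shared sequence, each 50-base word within 500 bp of a TSS was looked up in the whole assembly on both strands. The share found elsewhere was 100% at Hist1h2ao, Hist1h2ap, Hist1h2bq and Hist1h2br, 94.7% at Hist2h3c1 and 60% at Hist2h2aa2. It was 28.6% at Hist1h4k and 0% at Hist4h4 and Hist1h1t. The study sequenced 100 bases from each end of a fragment. A shared 50-base word thus need not leave a read pair without a unique place.

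Over the class, the median was 60% at the 11 genes without a promoter peak and 29.3% at the 56 genes with one, with ranges that overlap (0 to 100 and 0 to 95.3). Of the 15 genes with 50% or more, 9 had a promoter peak (60%, 35.7 to 80.2), against 47 of the 52 genes below it (90.4%, 79.4 to 95.8). Shared sequence did not go with a missing peak everywhere: Hist1h4n (95.3%), Hist1h4m (94.2%) and Hist2h3c2 (94.7%) each had one. The variant genes with a promoter peak had a median of 1.16% and at most 8.61%, so their calls rest on sequence that is almost all unique. Among the variants without one, the share was 44.5% at H2afb1, 33.3% at H2afb3, 29.9% at H2afb2, 26.8% at H3f3c and 1.05% at H2afy2. Whether read placement set any of these calls was not tested.

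**Figure D2:**
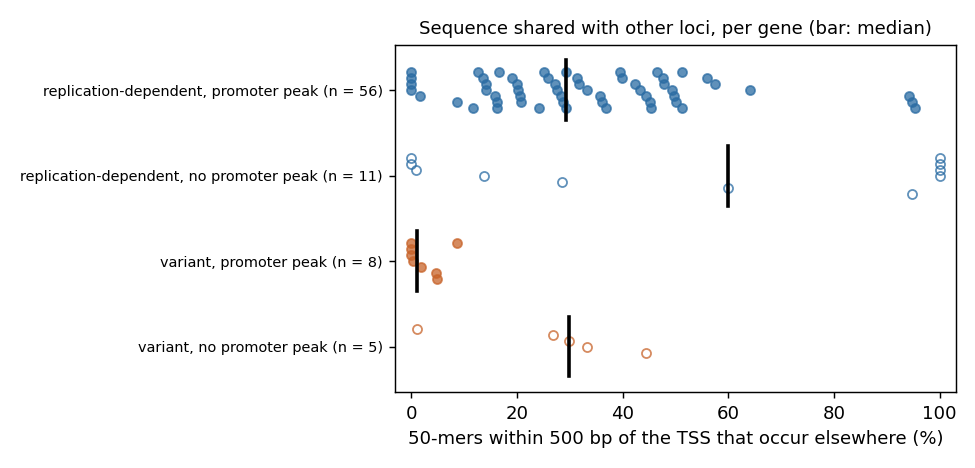
Share of 50-base words within 500 bp of the TSS that occur elsewhere in the assembly (x axis, percent), 1 point per gene, filled for genes with a promoter peak and open for those without. Bars are medians, 29.3% and 60% for replication-dependent genes with and without a promoter peak. 4 open points sit at 100%, and the filled variant points stay at or below 8.61%.

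The names in the list did not always match the RefSeq position in the duplicated Hist2 and Hist1 regions. The peak at chr3:96238891-96239389 was named Hist2h3c1 but covers the RefSeq start of Hist2h3c2, and that at chr3:96245000-96245498 was named Hist2h2aa2 but ends at that of Hist2h2aa1. Hist1h4n gave its name to promoter peaks at both copies of the H4 gene, the other being Hist1h4m in RefSeq. A peak carries 1 name, and 12 genes had a promoter peak with none named for them. Of these, 9 were partners in a divergent pair, and the other 3 were Hist1h4m, Hist2h3c2 and Hist2h2aa1. Counted by the names in the list, the share of replication-dependent genes with a promoter peak was 68.7%, or 46 of 67, which includes Hist2h2aa2 and Hist2h3c1. The share of all protein-coding genes counted this way was 54.8%.

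H2A and H2B genes lie back to back, and most of these pairs shared 1 peak. There were 13 divergent pairs of replication-dependent genes with starts within 1000 bp, 12 of them H2A with H2B and 1 (Hist1h2bh with Hist1h3f) H2B with H3. Their starts were 164 to 608 bp apart, with a median of 229 bp. Both genes had a promoter peak in 10 pairs and neither in 3. In 9 of the 10, a single peak of 499 bp held both starts, so that the 2 genes are not separate observations. The 3 pairs without were the testis pair Hist1h2ba with Hist1h2aa and the duplicated pairs Hist1h2bq with Hist1h2ao and Hist1h2ap with Hist1h2br.

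The families differed in where the peak centre lay. Over the 56 replication-dependent genes the centre was at a median of −35.5 bp from the TSS, from −248 to 342, upstream in 38 genes and downstream in 17. For all protein-coding genes with a promoter peak the median was −21 bp. The centre was upstream in 13 of 14 H2A genes (median −81 bp) and 13 of 15 H2B genes (median −95 bp), and in a divergent pair that is the side of the partner gene. It was also upstream in 9 of 11 H3 genes, with a median of −27 bp.

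H4 and H1 genes showed the other side. The centre was downstream in 9 of 11 H4 genes (median 49 bp) and 4 of 5 H1 genes (median 173 bp). In Hist1h4d, Hist1h4f, Hist1h4c, Hist1h4i and Hist1h4h it lay at 40, 49, 51, 54 and 66 bp. The exceptions were Hist1h4b at −39 bp and Hist1h4a at −209 bp, and, among the H1 genes, Hist1h1a at −33 bp. In Hist1h1b, Hist1h1e and Hist1h1d it lay at 173, 191 and 249 bp, inside the transcribed gene. The centre closest to a start was that of Hist2h2be, at 0 bp. Since all peaks have the same width, a centre gives the place of a peak but not its extent.

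**Figure D3:**
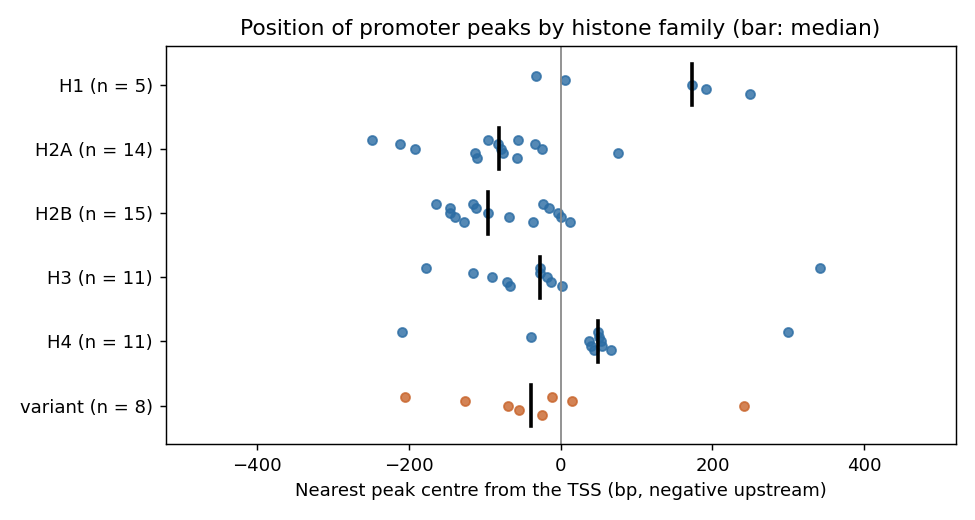
Position of the nearest peak centre from the TSS (x axis, bp, negative upstream) for each histone gene with a promoter peak, by family, with a bar at the median. H2A and H2B points lie mostly left of the start (medians −81 and −95 bp), H4 and H1 points mostly right of it (49 and 173 bp), and the 8 variants spread from −205 to 242 bp.

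Some replication-dependent genes had a peak at their 3′ end as well. The list annotates 13 of the 100 peaks named for the class (13%, 7.76 to 21) to a transcription end, against 1.64% of the whole list. 4 of these belong to H1 genes, Hist1h1a, Hist1h1c, Hist1h1d and Hist1h1b, with centres 956, 975, 1085 and 1094 bp after the start. The others were named for H4 genes (5 peaks), H2B genes (2) and Hist2h3c2 (2), and none for an H2A gene. One of the H4 peaks, named for Hist1h4c, lay 2912 bp upstream of it, at the end of another transcript. Another was named for Hist4h4, which had no promoter peak. Of the 2 named for Hist2h3c2, that at chr3:96247383-96247881 lies just past the RefSeq end of Hist2h3c1, also without a promoter peak. Replication-dependent genes are short, so their ends lie close to their starts.

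The promoters of the families carried different elements. The 250 bases before the start were searched in the RefSeq promoter table, in which 62 of the 67 replication-dependent genes had an entry, giving 63 windows because Hist1h2be has 2, and 12 of 13 variants. Not in the table were Hist1h3f, Hist1h2bc, Hist1h3a, Hist2h2be, Hist2h4 and H2afx. A CCAAT box stood in 52 of 63 replication-dependent windows (82.5%), in 8 of 12 variants (66.7%) and in 33.8% of all 32851 windows. It was in all 6 H1, all 18 H2A and all 17 H2B windows, in 8 of 10 H3 windows and in 3 of 12 H4 windows. At least 2 copies were present in 94.4% of H2A and 8.33% of H4 windows, against 10.1% of all. For H2B this was counted by gene, with the 2 windows of Hist1h2be pooled, and 16 genes had at least 2 copies. The CCAAT counts of H2A and H2B are not separate, since divergent partners can share sites. The boxes of Hist1h2ak at −81, −45 and −16 are those of Hist1h2bn at −87, −123 and −152.

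The octamer was found in 7 of 18 H2A and 7 of 17 H2B windows and in no H1, H3 or H4 window. Of all windows 1.6% held it, and among the variants H3f3b alone did. The E2F letters were likewise limited to H2A (4) and H2B (7), with 1.13% over all windows and none in a variant. The upstream windows of divergent partners overlap, so an octamer such as that of Hist1h2ae, at −128, is the same site as that of Hist1h2bg, at −59. The E2F letters of Hist1h2ag (−62) and Hist1h2bj (−194) are also 1 site, as are those of Hist1h2an (−52) and Hist1h2bp (−195). So are those of Hist1h2ap (−82) and Hist1h2br (−193). A window can also run past the start of the partner. The E2F letters of Hist1h2bf lie at −192, and its partner starts 174 bp away.

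The Hinfp core stood in 9 of 12 H4 windows, at a median of −45 and between −46 and −17. It was in 7.42% of all windows, and in 7 of 18 H2A windows, there at a median of −215.5. At Hist1h2ad, Hist1h2ae, Hist1h2ak and Hist1h2ao it lay at −213, −235, −233 and −218, inside the divergent H2B gene. The starts of these pairs are 164 to 180 bp apart. The printed Hist1h2ak sequence stops at its partner and leaves this match out. Hist3h2a held the core at −232, inside the divergent H2B pseudogene Hist3h2bb. Hist2h2aa1 held it at −69 and −10, and Hist2h2aa2 at −29. GC boxes were in 9 of 12 H4 windows, 5 of 12 variant windows and 0 of 17 H2B windows, with 32.7% over all. The H1 box stood in 5 of 6 H1 windows, all between −122 and −112, against 6.25% of all windows. The exception was Hist1h1a. The testis gene Hist1h1t held the H1 box at −114 with no promoter peak in these cells.

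A TATA box was in 46% of replication-dependent windows, 8.33% of variant windows (H3f3b alone) and 12.4% of all. Within 45 to 20 bases before the start it was in 25.4%, 8.33% and 2.75%, and in 4 of 6 H1 windows. Composition was taken over 300 bases, the 250 before the start and 50 after it. There the replication-dependent windows had a median GC content of 45.3%, the variants 58% and all windows 52.7%. The median ratio of observed to expected CpG over these bases was 0.746, 0.733 and 0.384. A match gives the letters only and does not show that a factor was bound.

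**Figure D4:**
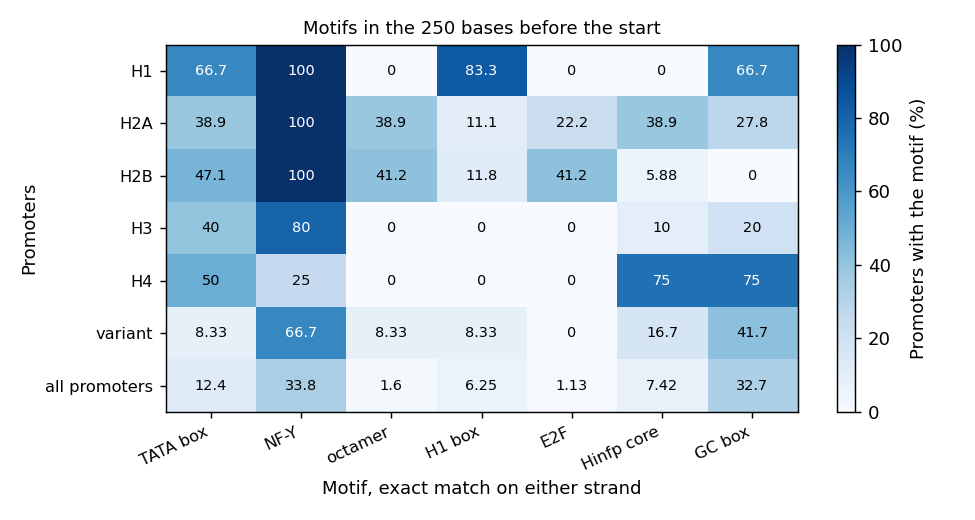
Share of RefSeq promoter windows with an exact match to each element in the 250 bases before the start (colour and number, percent), by replication-dependent family, for the variants and for all 32851 windows. The octamer and E2F columns are at 0 for H1, H3 and H4, and the Hinfp core and GC box are highest in H4, at 75%.

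The clusters held peaks at close spacing. Replication-dependent genes fell into 7 runs, taken as genes less than 150 kb apart. The run of 29 genes from Hist1h4h to Hist1h1a, chr13:23530044-23765412, had 28 genes with a promoter peak and 44 peaks in 235 kb, or 18.7 per 100 kb. Its only gene without was Hist1h1t. 42 of the 44 peaks were named for histone genes and 2 for Hfe, which lies in the run and encodes a regulator of iron uptake. The run of 18 genes from Hist1h2bl to Hist1h2br, chr13:21714711-21838530, had 13 genes with a promoter peak and 16 peaks, or 12.9 per 100 kb, and its 5 genes without were Hist1h4k and the 4 genes of the duplicated pairs.

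The Hist2 run, chr3:96218885-96271192, had 11 peaks in 52.3 kb for 10 genes. The short run chr13:22034122-22044658 had 3 peaks for 5 genes, all with a promoter peak, since 2 of the 3 peaks each served an H2A and an H2B gene. The testis pair, chr13:23932725-23935913, had none. The whole list has 3.18 peaks per 100 kb of assembled sequence, with a median of 9188 bp between neighbouring peaks, against 2943 to 5843 bp within the runs that had more than 1. Regions of like gene density were not compared.

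**Figure D5:**
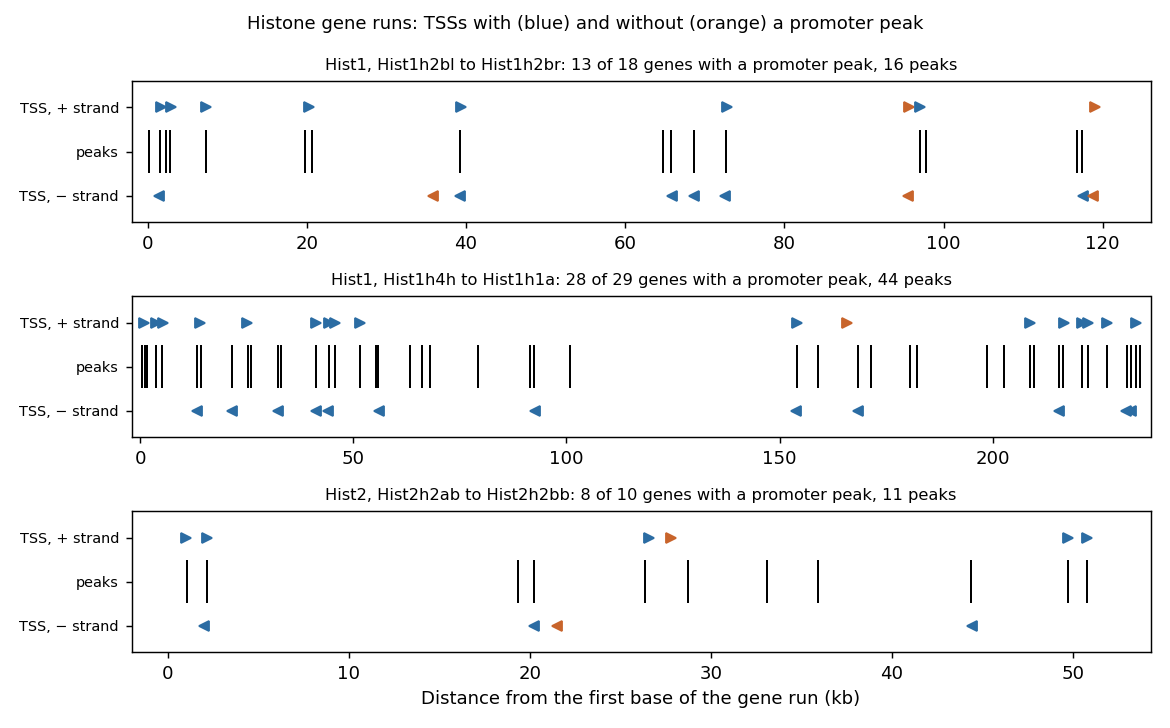
The 3 largest runs of replication-dependent genes, with distance from the first base of the run in kb on the x axis. Triangles are TSSs by strand, blue with and orange without a promoter peak, and vertical lines are peak centres. Orange triangles stand at 5 of 18, 1 of 29 and 2 of 10 genes, and a stretch with no histone TSS and no peak lies near the middle of the run of 29.

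The peaks named for the 2 classes lay at different distances. Of the 100 peaks named for replication-dependent genes, 48 were promoter peaks (48%, 38.5 to 57.7), and the median distance from the named start was 567 bp. 14 peaks lay beyond 10 kb and 0 beyond 100 kb. Of the 63 variant peaks, 8 were promoter peaks (12.7%, 6.58 to 23.1), with a median distance of 23829 bp, 44 beyond 10 kb and 13 beyond 100 kb. Of these, 24 and 12 carry the name of 1 pseudogene, H2afy3, and without it 20 lay beyond 10 kb and 1 beyond 100 kb. In the whole list 15.6% were promoter peaks, and the median distance was 16023 bp. The annotation placed 34 variant peaks between genes and 18 in introns, and 30 and 5 of the replication-dependent peaks. Names go to the nearest TSS, so a peak inside a dense cluster is near a histone start wherever it falls.

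Among the replication-dependent names, Hist1h4h had 9 peaks and Hist1h2be 7, and 36 of 55 names had 1. Of the 9 named for Hist1h4h, 6 lay 4471 to 13095 bp upstream, outside the run. Those of Hist1h2be include 2 promoter peaks at different starts of the 3 annotated for this gene, and 4 peaks in its intron. Hist1h1a, Hist1h1c, Hist1h4n and Hist2h3c2 had 4 each, as did Hist1h2al, a pseudogene elsewhere on chromosome 13, all 4 at 17243 to 73689 bp from it.

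The variant genes had very unequal numbers of peaks. H3f3a, an H3.3 gene, had 13. Its promoter peak was centred at −205 bp, 1 peak lay in exon 2 at 1793 bp, 5 lay 14122 to 42116 bp on the downstream side and 6 lay 4585 to 16388 bp upstream. H3f3b, the other H3.3 gene, had a single peak, at −55 bp. H3f3c, a further gene of this group, had none named for it, with the nearest centre 3106 bp upstream.

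Among H2A variants, H2afz (H2A.Z) had 6 peaks, at −69 bp, at 1243 bp in an intron, and 4 between 14530 and 36594 bp upstream. H2afv, which encodes the closely related second H2A.Z, had 2, at −126 bp and at 7798 bp in an intron. H2afx encodes H2A.X, which is phosphorylated at DNA breaks, and had 3 peaks, at −24, 619 and 1167 bp, the last annotated to the end of a neighbouring transcript. H2afj had 1, at −11 bp, the closest among the variants.

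H2afy, which encodes macroH2A1, a large H2A with an added domain, had 7 peaks, with the promoter peak at 15 bp and others from 145934 bp downstream to 16246 bp upstream. H2afy2, which encodes macroH2A2, had no promoter peak although only 1.05% of the sequence around its start was shared. The 3 peaks named for it lay 55080, 71620 and 94135 bp upstream, all within the span of the neighbouring collagen gene Col13a1. The nearest centre to its start was 49184 bp away. H1f0, a linker histone of differentiated cells, had 1 peak, in its 5′ UTR at 242 bp, the farthest of the variant promoter peaks.

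The name with the most variant peaks was H2afy3, which is a pseudogene. Its 26 peaks were all non-promoter, between 1596 and 604703 bp away, with 12 in the span of Pvt1, a long non-coding gene, and 14 over no RefSeq gene. Without them, 8 of 37 variant peaks were promoter peaks (21.6%, 11.4 to 37.2), with a median distance of 11313 bp, below that of the whole list. The replication-dependent share of 48% (38.5 to 57.7) lay above this 21.6% and the 15.6% of the list. The intervals treat peaks as independent, which clustered peaks are not, and the difference was not tested. Names go to the nearest TSS, which is close by in a dense cluster.

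Every gene examined from the machinery that handles histones had a promoter peak. The peak list pools all samples, so the cell types in which these promoters were accessible are unknown. Of 12 genes for histone mRNA supply, such as Slbp, which binds the stem-loop, and Npat, which activates histone genes in S phase, 12 had a promoter peak. Of 19 histone chaperone genes, such as Asf1a, Asf1b and Hira, all 19 had one (100%, 83.2 to 100), against 60.4% of all protein-coding genes. These are widely expressed genes, and no list of like genes was compared.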

How the data were processed

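The deposited file is a single annotated peak list. According to the study's methods, the authors ran the ENCODE ATAC-seq pipeline on mm10 without multimapping reads, joined the reproducible (IDR) peaks of each cell type, kept non-overlapping peaks with chromVAR and annotated them with HOMER (version 4.10.2 in the submitters' processing notes). The deposited columns give each peak's start, end and signed distance to the nearest TSS in bp, and a peak score that is 0 for every peak. All peaks are 499 bp wide. There is no column of values per sample, so no replicate error, depth or paired test could be had, and no test was run. Genes and peaks are not replicates of a condition.

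Classes were assigned by symbol. RefSeq (GRCm38.p6) gave TSSs of curated transcripts, and older symbols were matched through synonyms. A gene with an ambiguous older symbol, H2al2a, was left out. A promoter peak is a peak whose centre lies within 500 bp of any such TSS of a gene (or, for peaks, within 500 bp by the deposited distance). Shares carry 95% Wilson intervals. Motifs were exact letters on both strands of the 250 bases before the start, with overlapping matches each counted. Shared sequence was the percent of 50-base words within 500 bp of a TSS found elsewhere in the assembly. Distance, motif and word steps used Python 3.11.15, numpy 2.4.6, pandas 2.3.3 and scipy 1.17.1, and the distance and motif searches were tested on simulated data.

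The text names each variant gene, each replication-dependent gene with no promoter peak, those with the most peaks, and those with the nearest and farthest peak. Further genes were named as examples after their values were seen. The members, lists and motifs were chosen with earlier results of these data known.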

Additional observations from a re-analysis of the deposited data

How the results depend on the processing

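Of 26 alternatives run, 22 left the share within the 95% interval of the value given. With the promoter limit at 100 bp, 53.7% of replication-dependent genes had a promoter peak and 33% of the peaks named for them were promoter peaks, against 38.3% of all protein-coding genes and 9.59% of all peaks at that limit. With the limit at 1000 bp the second share was 61%, against 18.5% of all peaks. Counting only promoter peaks that the list names for the gene gave 68.7%, against 54.8% of all protein-coding genes. Leaving out the 15 genes with 50% or more shared words gave 90.4%, and adding H1fx, H1foo and H1fnt to the variants gave 56.2%, both chosen after seeing the data. No library could be left out, because the list pools all samples. No paired analysis was possible because the list has no columns per sample. Depth is unknown, so a gene without a peak was not called in the list, which does not show that its promoter is closed.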

Other observations

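Of the 100 peaks named for replication-dependent genes, 3 were annotated to elements of the tRNA class, labelled as the list labels repeats. They lay at chr13:21710774-21711272, chr13:23518804-23519302 and chr13:23521682-23522180, outside the gene runs. Whether these elements are tRNA genes was not checked. In the whole list 44 of 84243 peaks (0.0522%) were annotated to this class.

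H1fx, a linker variant whose symbol the rule does not take, had a peak centre 198 bp upstream of its start. The egg linker gene H1foo and the sperm linker gene H1fnt had none within 500 bp, with the nearest centre at 1703 and 75985 bp. The pseudogene Hist3h2bb was the only non-coding histone record with a promoter peak, centred 115 bp upstream. This is the peak of the neighbouring gene Hist3h2a. Of the 7 such records, Hist1h2aj, H2af-ps1, H3f3a-ps1 and H3f3a-ps2 have no curated TSS and so could not be called. Hist1h2al and H2afy3 have a TSS but no promoter peak.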
